A study of Mus musculus with 4 samples.

Results

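The 38 Hox genes considered here are those of the mouse clusters A, B, C and D that a list of gene names gave. They were read on the probe sets, groups of short probes meant to read 1 transcript, that the platform annotation assigned to exactly 1 such symbol. Where a gene had several, the probe set with the highest mean over the 4 arrays was used. Of the 38 genes, 33 had a probe set of their own, among 18193 genes of the array that had one. Hoxa6, Hoxc11 and Hoxc12 had none, and Hoxb8 and Hoxd4 had only probe sets that they share with Hoxb7 and Hoxd3, which were not used. A filter kept the brightest 60% of probe sets by mean over the 4 arrays. It passed 25 of the 33 genes, of which 7 are in cluster A and 6 each in clusters B, C and D, and these 25 were tested.

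The samples were early cultures of mouse embryonic fibroblasts, the connective tissue cells of the embryo, all at passage 3, with 1 array of biotin-labelled total RNA per line. RBP2-/- cells came from 2 independent lines and wild type cells from another 2, numbered 1 and 2 within each genotype in the titles. RBP2, retinoblastoma binding protein 2, is the H3K4 demethylase now called Kdm5a. The labels give neither the strain, the sex, the age of the embryos nor the part of the embryo that each line came from. No shared litter or day is stated for equal numbers. Each genotype had 2 lines, so how lines vary was measured poorly and a p-value rests on few of them. The p-values and standard errors (SE) come from limma, which draws the variance of each probe set toward that of others of like brightness. An SE is thus not the spread of the lines for that gene. Hoxd10 had standard deviations of 0.019 and 0.023 within RBP2-/- and wild type, and an SE of 0.36.

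Hox genes encode homeodomain transcription factors that give cells their position along the head-to-tail axis and along the limbs. Within a cluster the genes lie in the order in which they are used: low paralogue numbers act near the head, and high numbers act in the trunk, the tail and the far end of the limbs. Fibroblasts in culture keep much of the Hox pattern of the place they were taken from. Trithorax proteins, which write H3K4 methylation, keep Hox genes active, and Polycomb proteins keep them silent. An enzyme that erases H3K4 methylation could thus act on them, and RBP2 has been found at Hox genes in mouse embryonic stem cells.

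Before normalization the median signal was 21.5 and 43.7 on RBP2-/- arrays 1 and 2, and 22.7 and 29.4 on wild type arrays 1 and 2, so quantile normalization was applied. Values below are log2(normalized signal + 9) unless stated otherwise. After it, wild type replicate 1 correlated with the other arrays at 0.923 to 0.925 across probe sets, and those arrays correlated among themselves at 0.946 to 0.963. All 12 fibroblast markers passed the filter, with Col1a1 between 4799 and 7940 and Vim between 6579 and 11413 in deposited signal, and the 3 pluripotency markers were all below it. The brightest Kdm5a probe set had 6.40 and 6.49 in RBP2-/- lines, against 6.72 and 7.65 in wild type lines, and did not pass the threshold. Other tested Kdm5a probe sets had log2 fold changes, RBP2-/- over wild type, from -1.24 to 0.24. Since the sources used here do not say which part of the gene was deleted, these values do not check the labels. In such cultures fewer cells of a type and less RNA per cell cannot be told apart.

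The promoters of 4 Hox genes are shown because these genes carry the values described below: Hoxd9, Hoxa13 and Hoxd3 differed most between genotypes among genes whose arrays did not overlap, and Hoxd13 differed widely between lines. The ARID domain of RBP2 binds the motif CCGCCC, which was searched on both strands. Its reverse complement, GGGCGG, is also the core of the GC box that Sp1 binds. Capitals mark these matches. Each window runs from 250 bases before the RefSeq start to 50 after it, in build GRCm38.p6, written 5' to 3' on the strand of the gene.
Hoxd9 (chr2:74697513-74697812, plus strand): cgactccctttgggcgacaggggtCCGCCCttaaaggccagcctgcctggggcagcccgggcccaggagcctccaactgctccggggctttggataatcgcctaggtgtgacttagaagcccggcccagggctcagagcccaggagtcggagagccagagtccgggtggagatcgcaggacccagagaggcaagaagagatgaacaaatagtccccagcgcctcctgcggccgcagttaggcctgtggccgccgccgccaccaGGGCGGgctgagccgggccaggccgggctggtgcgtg
Hoxd13 (chr2:74667975-74668274, plus strand): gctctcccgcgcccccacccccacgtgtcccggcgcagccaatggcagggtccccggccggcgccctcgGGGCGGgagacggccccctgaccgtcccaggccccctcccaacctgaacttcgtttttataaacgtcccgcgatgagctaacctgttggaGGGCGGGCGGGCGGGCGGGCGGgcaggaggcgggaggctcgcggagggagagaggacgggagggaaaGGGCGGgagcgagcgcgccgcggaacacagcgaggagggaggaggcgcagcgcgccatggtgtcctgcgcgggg
Hoxd3 (chr2:74711743-74712042, plus strand): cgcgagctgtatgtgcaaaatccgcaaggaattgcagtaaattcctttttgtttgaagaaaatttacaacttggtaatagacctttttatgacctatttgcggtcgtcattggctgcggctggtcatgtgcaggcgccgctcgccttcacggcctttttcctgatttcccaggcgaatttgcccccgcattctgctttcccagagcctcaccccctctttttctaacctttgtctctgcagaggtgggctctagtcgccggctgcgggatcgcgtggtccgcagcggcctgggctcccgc
Hoxa13 (chr6:52260831-52261130, minus strand): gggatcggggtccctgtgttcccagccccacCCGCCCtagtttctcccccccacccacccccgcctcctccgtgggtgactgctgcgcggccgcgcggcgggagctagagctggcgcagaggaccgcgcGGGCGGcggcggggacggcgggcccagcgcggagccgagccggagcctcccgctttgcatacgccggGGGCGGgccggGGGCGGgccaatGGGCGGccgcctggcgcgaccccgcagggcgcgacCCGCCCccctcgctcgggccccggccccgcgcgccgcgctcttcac
The motif occurred 2 times in the Hoxd9 window, 7 times in that of Hoxd13, 6 times in that of Hoxa13 and 0 times in that of Hoxd3. RefSeq windows were found for 22 of the 38 genes. Of their 24 windows 10 held the motif, or 41.7%, against 35.7% of the 32851 windows of all genes. CpG dinucleotides were more frequent in the Hox windows, with a median of 14.5 in 300 bases, against 7 over all windows, and they ranged from 4, in 1 window each of Hoxa9, Hoxd4 and Hoxd11, to 45 in Hoxa13. No binding was measured here, so a match is only a match of letters.

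The lines differed from each other in their Hox pattern. Because probe sets differ in brightness for reasons other than transcript level, no gene was ranked against another, and each line is described by how far each gene lay from its own mean over the 4 lines. Of the 25 genes, 11 spanned at least 1 on the log2 scale from the lowest to the highest line, where 24.6% of all 27022 tested probe sets did. The median span was 0.87 for the Hox genes and 0.64 for all probe sets. It was 1.49 in cluster D, 0.98 in cluster B, 0.69 in cluster C and 0.61 in cluster A. Hoxd9 and Hoxd11, with spans of 1.82 and 1.95, count among the 11 and in the cluster D median. Both passed the filter only through the RBP2-/- lines, so they had to differ between lines. Their mean normalized signals of 22.2 and 23.2, and the 34.6 of Hoxd3, lay near the lowest kept, 19.8.

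**Figure D1:**
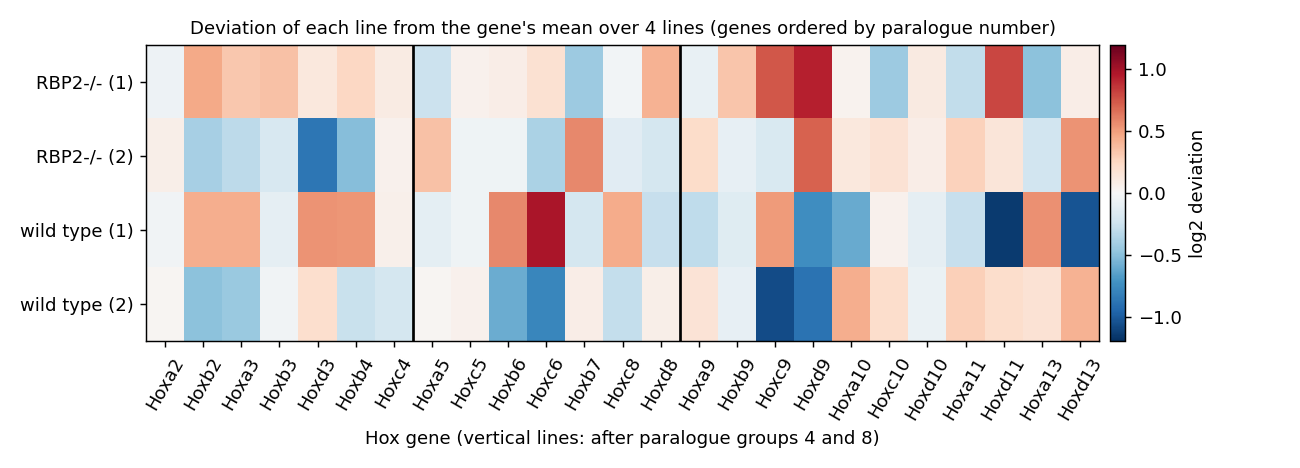
Deviation of each line (rows) from the mean of each gene over the 4 lines, on the log2 scale, for the 25 tested Hox genes ordered by paralogue number. Genes of groups 2 to 4 are mostly above their mean in both lines numbered 1, and Hoxd9 is above its mean in both RBP2-/- lines and below it in both wild type lines.

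RBP2-/- replicate 1 was the highest line for 9 genes, at a background of 25.7%: Hoxb2, Hoxb3, Hoxb9, Hoxc4, Hoxc9, Hoxd8, Hoxd9, Hoxd10 and Hoxd11. None of these is in cluster A, where it was the lowest line for 4 of 7 genes, out of 6 in all, at a background of 24.6%. RBP2-/- replicate 2 was the highest line for Hoxa2, Hoxa5, Hoxa9, Hoxb7 and Hoxd13, with a background of 22.4%, and the lowest for Hoxb3, Hoxb4, Hoxc5 and Hoxd3, with a background of 23.8%. Wild type replicate 1 was highest for 7 genes, at a background of 31.7%, 6 of which have paralogue numbers 3 to 8 while the seventh is Hoxa13. It was lowest for 7 genes, against a background of 31.3%, and 6 of these belong to groups 9 to 13: Hoxa9, Hoxa10, Hoxb9, Hoxd10, Hoxd11 and Hoxd13. Wild type replicate 2 was lowest for 8 genes, against a background of 20.4%, which were Hoxa3, Hoxb2, Hoxb6, Hoxc4, Hoxc6, Hoxc8, Hoxc9 and Hoxd9. The genes for which it was highest were Hoxa10, Hoxa11, Hoxc5 and Hoxc10, with a background of 20.2%.

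On their brightest probe sets, equal numbers in the titles went together for many Hox genes. Both lines numbered 1 lay above both numbered 2 for 8 of the 25 genes, with a background of 20.7% of all probe sets, and both numbered 2 lay above both numbered 1 for another 8, with a background of 20.3%. Together these are 64.0% of the Hox genes and 40.9% of all probe sets. The Hox share counts only the brightest probe set of each gene. On every dimmer tested Hox probe set the numbers overlapped, so the share over all tested Hox probe sets is lower. Some markers moved with the numbers too. Of the 12 fibroblast markers, 6 were higher in both lines numbered 2 and 0 in both numbered 1. The 4 skeletal muscle markers, of which 3 passed the filter and Myog did not, summed to a normalized signal of 1215 and 775.1 in the RBP2-/- and wild type lines numbered 1, against 316.9 and 396.1 in those numbered 2, mostly from Acta1. Of the 3 that passed, Acta1 was higher in both lines numbered 1, Des was higher in both numbered 2, and Myod1 overlapped. Of 4 tested macrophage and leukocyte markers, 3 were higher in both lines numbered 1. Of 5 tested neural markers, 2 went each way. The part of these cell types in the Hox pattern was not tested. By position on the axis, the mean of the lines numbered 1 was the higher for 6 of 7 genes of groups 1 to 4, with a median difference of 0.66 (number 1 minus number 2, log2). In groups 5 to 8 it was the higher for 4 of 7 genes, with a median of 0.14. In groups 9 to 13 it was the higher for 4 of 11, with a median of -0.35. These medians are a description, and no test was made of them. The difference was present within each genotype for groups 1 to 4, with a median of 0.64 between the RBP2-/- lines and 0.33 between the wild type lines. For groups 9 to 13 it was -0.08 between the RBP2-/- lines, which leaves out wild type replicate 1, and -0.16 between the wild type lines. With arrays centred on their medians, the median for groups 9 to 13 was -0.06 and 5 of 11 genes were higher in lines numbered 1, while all 7 genes of groups 1 to 4 were higher there.

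Among genes of groups 1 to 4, Hoxb2, which patterns the hindbrain, had 7.85 and 6.999 in RBP2-/- lines 1 and 2, against 7.83 and 6.91 in wild type lines 1 and 2. Hoxa3, needed for the thymus and parathyroid glands, had 6.44 and 5.805 in RBP2-/- lines, against 6.55 and 5.67 in wild type lines. In both genes the 2 lines numbered 1 were high, the 2 numbered 2 were low, and the genotypes overlapped. Hoxb4, known for the expansion of blood stem cells, had 6.07 and 5.31 in RBP2-/- lines, against 6.35 and 5.55 in wild type lines, again with the higher values under number 1. Its log2 fold change, RBP2-/- over wild type, was -0.26 ± 0.41 (SE). Hoxb3 had 7.43 and 6.88 in RBP2-/- lines, against 6.97 and 7.03 in wild type lines, so that only RBP2-/- replicate 1 stood out. Hoxa2, a selector gene of the second pharyngeal arch, and Hoxc4 spanned 0.13 and 0.31 over the 4 lines.

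Hoxd3, which shapes the first cervical vertebrae, was the tested gene of this part of the axis whose genotypes did not overlap on the brightest probe set. It had 5.49 and 4.498 in RBP2-/- lines, against 5.90 and 5.57 in wild type lines. Both RBP2-/- lines were below both wild type lines, with replicate 2 far below replicate 1. The log2 fold change of Hoxd3 was -0.74 ± 0.45 (SE), the 95% interval ran between -1.76 and 0.28, and the limma adjusted p was 1.00. Without RBP2-/- replicate 2 it was -0.24. In the same part of the axis, the genotypes also did not overlap on a dimmer Hoxb3 probe set, nor for Hoxa4, which fell below the filter.

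Of the genes of groups 5 to 8, Hoxc6, which is used in the upper trunk, had the widest spread. It had 7.68 and 7.11 in RBP2-/- lines, against 8.47 and 6.71 in wild type lines, so the wild type lines were the highest and the lowest of the 4. A dimmer Hoxc6 probe set had 7.32 and 7.32 in RBP2-/- lines, against 8.31 and 6.93 in wild type lines, with the same lines at either end. Hoxb6, a trunk gene of the lateral mesoderm, had 6.78 and 6.65 in RBP2-/- lines, against 7.28 and 6.11 in wild type lines. Hoxc8, which patterns the thoracic region, had 7.77 and 7.67 in RBP2-/- lines, against 8.25 and 7.52 in wild type lines. In these 3 genes the RBP2-/- lines lay between the wild type lines. Hoxb7 ran the other way by number, with 4.73 and 5.74 in RBP2-/- lines, against 4.96 and 5.25 in wild type lines. Hoxa5, needed for lung development, had 7.24 and 7.85 in RBP2-/- lines, against 7.38 and 7.53 in wild type lines. Hoxc5 spanned 0.11 over the 4 lines.

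**Figure D2:**
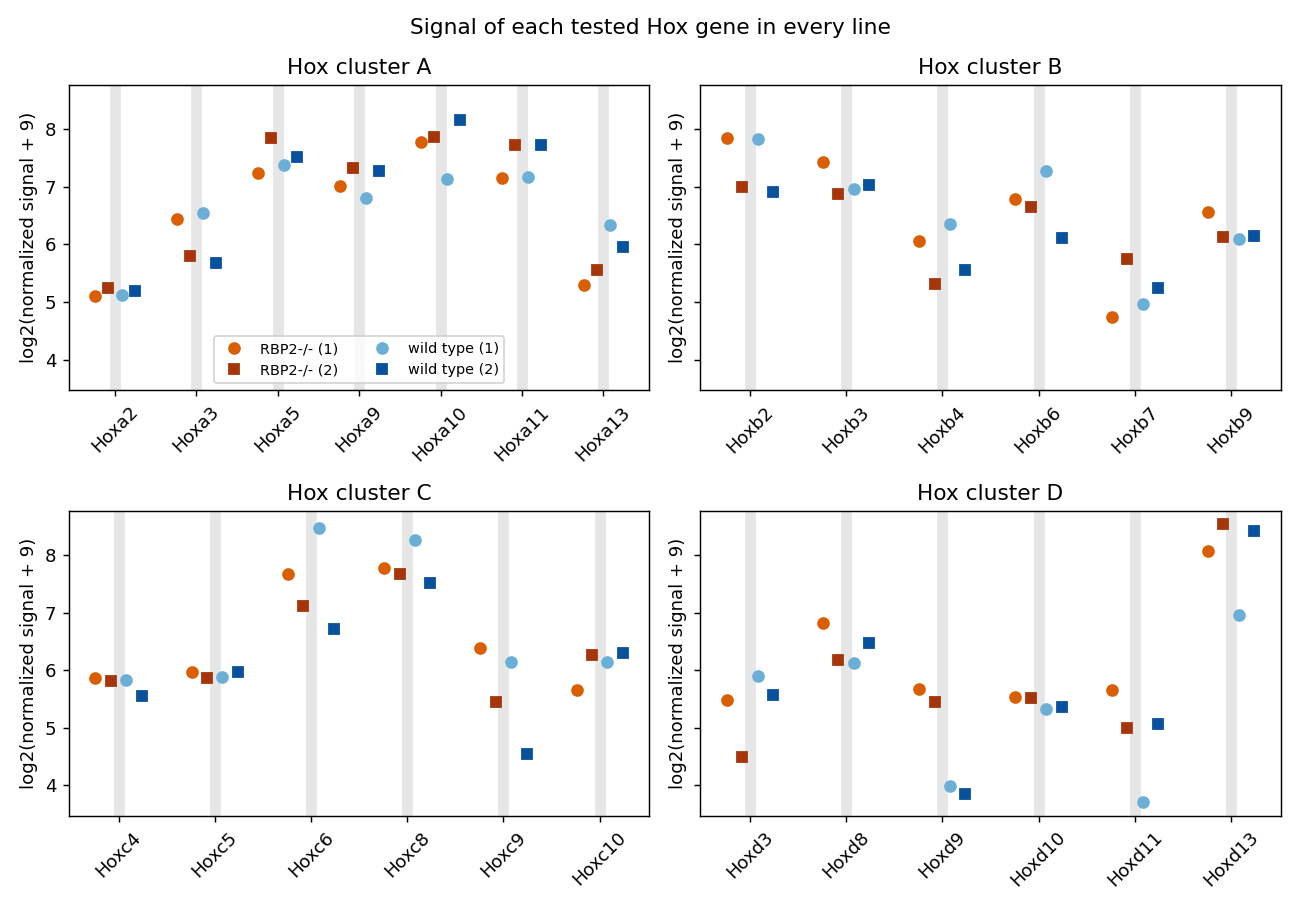
Log2(normalized signal + 9) of each tested Hox gene in the 2 RBP2-/- lines (orange and brown) and the 2 wild type lines (light and dark blue), by cluster, with circles for lines numbered 1 and squares for lines numbered 2. Heights compare lines within a gene, not genes with each other; Hoxd9 is the gene whose RBP2-/- points lie farthest from both wild type points.

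In groups 9 to 13, the members of cluster A other than Hoxa13 were higher in lines numbered 2 on their brightest probe sets. Hoxa11, needed for the forearm and the uterus, had 7.15 and 7.73 in RBP2-/- lines, against 7.18 and 7.73 in wild type lines, so the genotypes were nearly the same at each number. Hoxa10 had 7.78 and 7.86 in RBP2-/- lines, against 7.13 and 8.17 in wild type lines, and Hoxa9 had 7.02 and 7.33 in RBP2-/- lines, against 6.80 and 7.27 in wild type lines. For both, wild type replicate 1 was the lowest. A dimmer Hoxa9 probe set had 6.50 and 6.61 in RBP2-/- lines, against 7.16 and 6.87 in wild type lines. On it wild type replicate 1 was the highest, and the numbers overlapped. Hoxc9, a gene of the thoracic region, went with number 1 instead, at 6.38 and 5.44 in RBP2-/- lines, against 6.14 and 4.55 in wild type lines. Its log2 fold change was 0.56 ± 0.56 (SE), and -0.23 without wild type replicate 2. Hoxc10, used in the lumbar region and the hindlimb, had 5.66 and 6.26 in RBP2-/- lines, against 6.14 and 6.30 in wild type lines. Hoxb9, a gene of the lower trunk, had 6.57 and 6.14 in RBP2-/- lines, against 6.09 and 6.14 in wild type lines, so that RBP2-/- replicate 1 alone was high.

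Hoxd9, which takes part in patterning the upper limb segments and the lower spine, had 5.67 and 5.45 in RBP2-/- lines, against 3.99 and 3.85 in wild type lines. As deposited, its signal was 30.6 and 52.2 in RBP2-/- lines, against 5.5 and 5.7 in wild type lines. Both RBP2-/- lines were above both wild type lines, and the gap exceeded the spread within either genotype. The log2 fold change of Hoxd9 was 1.64 ± 0.51 (SE), and its 95% interval ran between 0.48 and 2.79. Its unadjusted limma p was 0.011 and its adjusted p over all 27022 probe sets was 1.00, so it did not pass the threshold. Hoxd9 passed the filter only through the RBP2-/- lines, since the mean normalized signal was 38.3 in RBP2-/- lines and 6.18 in wild type lines and the filter lay at 19.8. A gene that passes in this way had to differ. With a pseudocount of 1 its log2 fold change was 2.45, and with 32 it was 0.88.

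Next to Hoxd9, Hoxd10 had 5.53 and 5.51 in RBP2-/- lines, against 5.32 and 5.35 in wild type lines. Its genotypes did not overlap either, but the log2 fold change was 0.18 ± 0.36 (SE), and 0.012 with median-centred arrays. Hoxd8, on the other side of Hoxd9, had 6.82 and 6.18 in RBP2-/- lines, against 6.12 and 6.47 in wild type lines, with the genotypes overlapping. A dimmer Hoxd8 probe set had 6.02 and 6.10 in RBP2-/- lines, against 4.49 and 5.45 in wild type lines, with a log2 fold change of 1.09.

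Hoxd11, which with Hoxa11 forms the forearm, had 5.65 and 5.0 in RBP2-/- lines, against 3.71 and 5.07 in wild type lines. Wild type replicate 1 alone was low, and wild type replicate 2 lay between the RBP2-/- lines. The log2 fold change of Hoxd11 was 0.94 ± 0.60 (SE), and 0.26 without wild type replicate 1. Like Hoxd9, it passed the filter only through the RBP2-/- lines, with a mean normalized signal of 32.2 in RBP2-/- lines and 14.3 in wild type lines, so it too had to differ. Hoxd13, the main digit gene of the cluster, had 8.08 and 8.53 in RBP2-/- lines, against 6.96 and 8.41 in wild type lines. Again wild type replicate 1 was the only low line, the log2 fold change was 0.62 ± 0.43 (SE), and it was -0.10 without that array. A dimmer Hoxd13 probe set had 6.14 and 5.90 in RBP2-/- lines, against 5.47 and 6.87 in wild type lines, and also had its lowest value in wild type replicate 1.

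Hoxa13, which acts with Hoxd13 in the hand and foot and in the genital tract, differed in the opposite direction. It had 5.30 and 5.56 in RBP2-/- lines, against 6.33 and 5.96 in wild type lines, and the genotypes did not overlap. The log2 fold change of Hoxa13 was -0.72 ± 0.33 (SE), the 95% interval ran between -1.48 and 0.044, and the limma adjusted p was 1.00. Leaving out single arrays gave values from -0.90 to -0.53. Unlike the brightest probe sets of the other cluster A genes of groups 9 to 13, it was highest in wild type replicate 1. The dimmer Hoxa9 probe set was highest there too.

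Over the 25 tested genes, 0 passed the threshold of an adjusted p of 0.05 in limma, with a background of 0.0037%, or 1 probe set of 27022. At an unadjusted limma p under 0.05 there was 1 gene, Hoxd9, against a background of 2.95%. It passed the filter only through the RBP2-/- lines. Dimmer probe sets of Hoxb3 and Hoxd8, not counted here, had unadjusted limma p of 0.028 and 0.030. Their log2 fold changes were -1.15 and 1.09. On the brightest probe sets the genotypes did not overlap for 4 genes, against 29.5% of all probe sets. These were Hoxd9 and Hoxd10 with both RBP2-/- lines above, at a background of 14.6%, and Hoxd3 and Hoxa13 with both below, at a background of 14.9%. Dimmer tested probe sets, not counted here, also did not overlap for Hoxc5 and Hoxd8, with both RBP2-/- lines above. The same held for Hoxa5, Hoxa9 and Hoxb3, with both below. The log2 fold change was above 0 for 17 genes and below 0 for 8, where 50.3% of all probe sets were above 0. The median log2 fold change was 0.090 over the Hox genes and 0.0027 over all probe sets. By cluster it was 0.016 in A, 0.096 in B, -0.086 in C and 0.41 in D, where 5 of 6 genes were above 0. Of those 6, Hoxd9 and Hoxd11 had a wild type mean below the filter and passed through their RBP2-/- mean. For Hoxd11 only wild type replicate 1 was low. With no filter the median was 0.25 in cluster D and -0.17 in cluster C. With the mean of all kept probe sets of a gene, cluster C had -0.0083. Leaving out wild type replicate 1 gave cluster D a median of 0.099, and leaving out wild type replicate 2 gave 0.86. By position it was 0.016 in groups 1 to 4, 0.026 in groups 5 to 8 and 0.18 in groups 9 to 13. Beside these values, summed normalized signals of markers of other cell types differed between lines. The 3 erythroid markers with a probe set, all past the filter, summed to 76.0 and 87.6 in RBP2-/- lines, against 172.6 and 119.6 in wild type lines, with no overlap. Among them Klf1 had a log2 fold change of -1.32, Gata1 -1.12 and Hba-a1 0.99. Hba-a1 passed the filter only through the RBP2-/- lines, with a mean normalized signal of 32.7 there and 12.4 in wild type lines. It thus had to differ. The 6 epithelial markers summed to 500.9 and 654.6 in RBP2-/- lines, against 827.2 and 616.1 in wild type lines, and the 6 macrophage and leukocyte markers to 286.8 and 290.0 in RBP2-/- lines, against 428.8 and 325.6 in wild type lines. Of their members, 5 and 4 passed the filter, and Cdh1, Ptprc and Cd68 did not. The epithelial sums came mostly from Epcam. Of the 5 tested epithelial markers, 4 had log2 fold changes below 0. Krt18 was the 1 above 0, at 0.38, with both RBP2-/- lines above both wild type lines. The part of other cell types in the Hox values was not tested. The median standard error was 0.36, and the interval of Hoxa10, which ran between -0.60 and 0.95, shows how wide the range of differences is that the arrays allow. With 2 lines against 2, an exact two-sided permutation test of a single gene cannot give a p below 0.333.

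**Figure D3:**
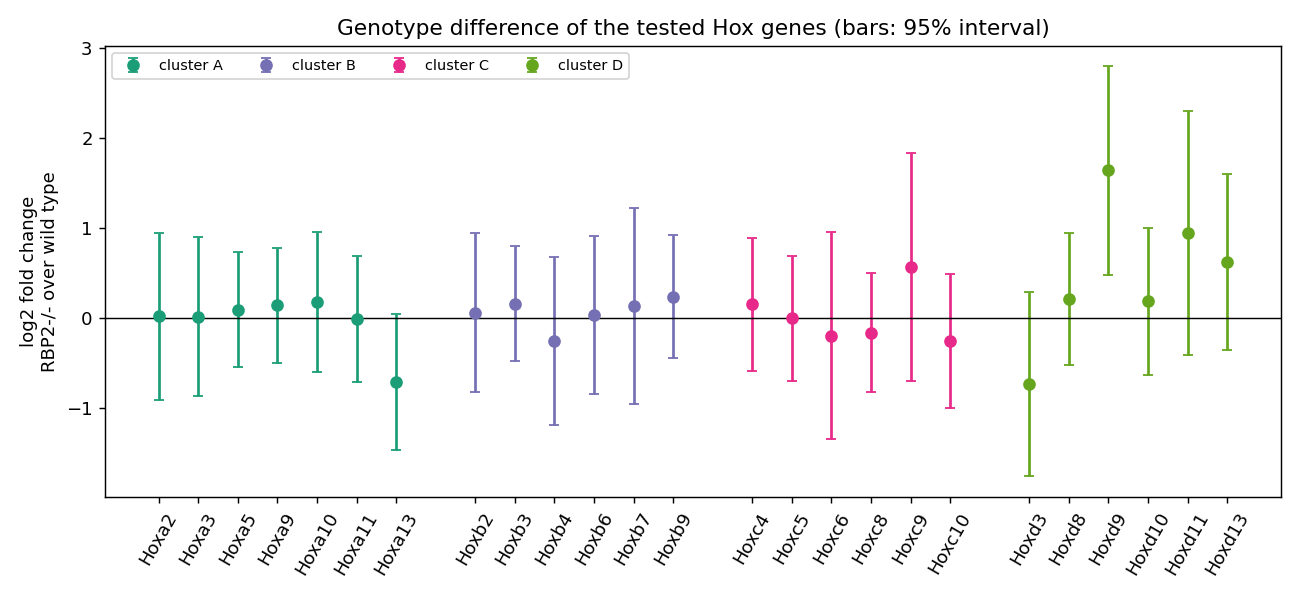
Log2 fold change of RBP2-/- over wild type for the 25 tested Hox genes, by cluster and paralogue number, with 95% intervals from the limma fit. The interval of Hoxd9, from 0.48 to 2.79, is the only one that does not include 0, and no gene passed the adjusted threshold. Only the brightest probe set of each gene is shown, and Hoxd9 passed the filter only through the RBP2-/- lines.

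Probe sets of the same gene often disagreed. Of the 9 genes with several tested probe sets, 7 had log2 fold changes on both sides of 0, and 2, Hoxc6 and Hoxd8, had 1 sign. The brightest Hoxb3 probe set had 0.15, and the dimmer had -1.15, at 4.88 and 5.73 in RBP2-/- lines, against 6.93 and 5.98 in wild type lines. Hoxa5 had 0.090 and -0.64, and Hoxa9 had 0.14 and -0.46. On each of these 3 dimmer probe sets both RBP2-/- lines were below both wild type lines. Hoxa3 had 0.012, -0.29 and 0.88, Hoxb4 had -0.26 and 0.058, and Hoxc5 had -0.0056 and 0.40. The difference between numbers kept its sign over probe sets in 5 of the 9 genes. For the other 16 tested genes, Hoxd9, Hoxd11, Hoxd3 and Hoxa13 among them, only 1 probe set was tested.

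**Figure D4:**
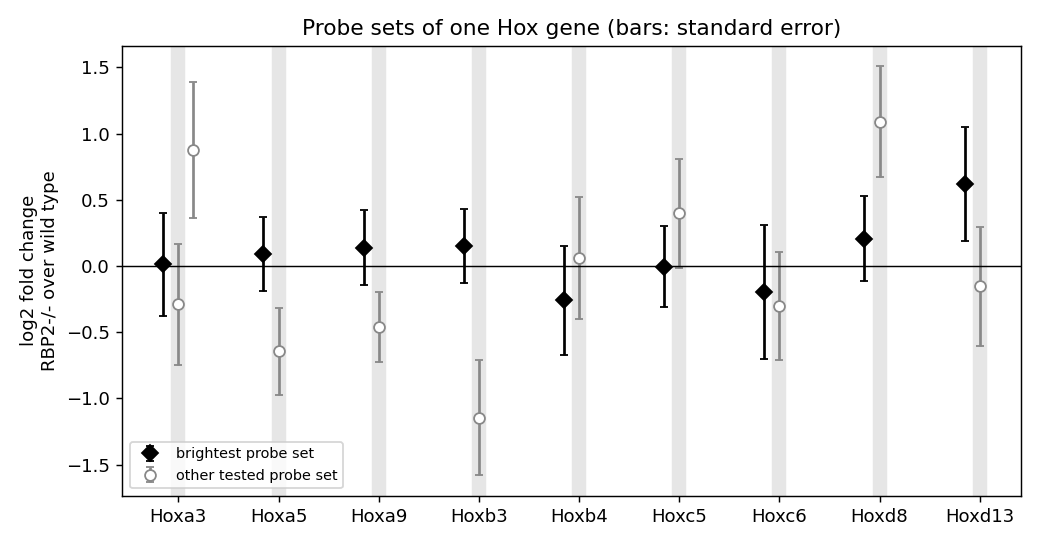
Log2 fold change of RBP2-/- over wild type for every tested probe set of the 9 Hox genes with several, with standard errors; diamonds mark the brightest probe set and open circles the others. Probe sets lie on both sides of 0 for 7 of the 9 genes.

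The 8 genes below the filter, which were not tested, had mean normalized signals from 5.02 for Hoxb5 to 19.1 for Hoxb1, and the tested genes nearest to the filter were Hoxd9 and Hoxd11 with 22.2 and 23.2. Hoxa4 had 4.84 and 5.10 in RBP2-/- lines, against 4.30 and 4.51 in wild type lines. Hoxb13, a gene of the tail end and the prostate, had 3.64 and 3.38 in RBP2-/- lines, against 4.85 and 3.68 in wild type lines, and was highest, like Hoxa13, in wild type replicate 1. Hoxa7, Hoxb1, Hoxb5, Hoxc13, Hoxd1 and Hoxd12 overlapped between genotypes.

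Around the Hox genes, 5 lists were measured: the DNA-binding cofactors of Hox proteins, Polycomb genes, trithorax genes with H3K27 demethylases, upstream and positional regulators, and genes that flank the clusters. None of their members passed the threshold in limma, and 2 had an unadjusted p under 0.05, both among the regulators. Over the 5 lists pooled that is 2 of 85 tested entries, or 2.35%, against 2.95% of all probe sets. Evx2 is an entry of 2 lists. Both genes came from the 20 tested regulators, and a pooled share cannot say whether a single gene stands out. Of 7 tested cofactors, 4 were above 0 and 3 below, with a median log2 fold change of 0.079. Meis3 had -0.67, Meis1 0.41 and Pbx2 -0.29. Of 26 Polycomb genes, 15 had values above 0 and 11 below. Their median was 0.035, and Cbx7, which passed only through the RBP2-/- lines, had 0.73, Phc2 -0.24 and Phf19 -0.23. Of 15 trithorax and H3K27 demethylase genes, 5 had values above 0 and 10 below. Their median was -0.08, and Setd1b had 0.28, Kdm6b -0.21 and Kmt2b -0.20. In this list Uty spanned 3.58 over the lines, with 7.65 and 4.08 in RBP2-/- lines, against 5.38 and 7.28 in wild type lines. Its high lines, RBP2-/- replicate 1 and wild type replicate 2, shared neither genotype nor number. What set them apart was not tested, and no link of Uty to the Hox values was tested. Of 17 genes flanking the clusters, 7 had values above 0 and 10 below. Their median was -0.05, and Ttll6, beyond cluster B, had 0.74, Snx10 -0.52 and Snx11 0.57.

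Of 20 upstream and positional regulators, 12 were above 0 and 8 below, with a median of 0.081. Rara, a receptor of retinoic acid, which switches on anterior Hox genes, had 6.91 and 6.33 in RBP2-/- lines, against 4.84 and 6.13 in wild type lines. Its log2 fold change was 1.14 ± 0.45 (SE). Cyp26a1, which degrades retinoic acid and is itself a target of it, had 4.5999 and 4.49 in RBP2-/- lines, against 6.21 and 5.19 in wild type lines, and a log2 fold change of -1.16 ± 0.48 (SE). Cyp26a1 passed the filter only through the wild type lines, at a mean normalized signal of 14.3 in RBP2-/- lines and 46.2 in wild type lines, so it had to differ. In Rara the RBP2-/- lines were the high ones and in Cyp26a1 the low ones. The genotypes of Rara and Cyp26a1 did not overlap, and wild type replicate 1 was farthest from the RBP2-/- lines in both. Cdx2, an activator of trunk and posterior Hox genes, had 5.16 and 3.57 in RBP2-/- lines, against 5.89 and 5.41 in wild type lines. By the means of the genotypes it likewise passed only through the wild type lines, and RBP2-/- replicate 2 was its lowest line.

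Limb identity factors of the same list also set lines apart, and they are named here after their values were seen. Tbx4, a hindlimb factor, had 3.72 and 7.27 in RBP2-/- lines, against 5.68 and 6.27 in wild type lines. Pitx1, which specifies the hindlimb and activates Tbx4, had 4.002 and 6.16 in RBP2-/- lines, against 5.46 and 6.16 in wild type lines. In both, RBP2-/- replicate 1 was the low line, at a deposited signal of 2.9 for Tbx4 and 4.9 for Pitx1, while RBP2-/- replicate 2 had 229.4 and 97.7. Tbx5, a forelimb factor, had 4.05 and 4.41 in RBP2-/- lines, against 4.67 and 6.21 in wild type lines, so that wild type replicate 2 was the high line, and it too passed only through the wild type lines. The log2 fold changes of Tbx4, Pitx1 and Tbx5 had standard errors of 0.93, 0.65 and 0.61, and none passed the threshold. No source used here gives the body region or the sex of each line, and their part in the differences between lines was not tested.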

How the data were processed

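RNA of 4 fibroblast lines was measured on 1-colour Affymetrix arrays, per the labels. The authors deposited linear intensity values, 1 for each of 45101 probe sets, 64 of them controls. No source used here says how probes were summarised. Trimmed means, with 2% left out at each end, differed by up to 2.46 times between arrays, so all values were quantile normalized. A pseudocount of 9, near the 25th percentile of the deposited values, was added before log2. Fold changes are on this scale, which shrinks differences between dim values. Controls were left out of the tests and the brightest 60% of the rest, 27022 probe sets, were kept.

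The genotypes were compared by lmFit and eBayes (limma 3.58.1, R 4.3.3), letting the prior variance follow the mean. The tests used both sides, with Benjamini-Hochberg adjustment over all kept probe sets and a threshold of 0.05. The procedure was tested on simulated arrays. Gene names came from the platform annotation, with 1 symbol for 34945 probe sets, and promoters from RefSeq (GRCm38.p6). With 4 arrays, precision is low throughout.

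Members and lists were chosen with earlier results of these data known. Full values are given, per cluster, for up to 4 tested genes with the largest absolute log2 fold change and up to 3 with the largest span, for groups 11 and 13, and, chosen after their values were seen, for Hoxb2, Hoxd8, Hoxd10, Hoxa4 and Hoxb13. From each of the other lists the 3 genes with the smallest unadjusted p are named, and Uty was added after its values were seen. Same-numbered lines had deviations from their genotype means that correlated at 0.109. With 2 pairs this does not establish pairing, so the main fit has no block. Alternatives covered scaling, pseudocount, filter, variance model, probe set choice, replicate block and each array left out.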

Additional observations from a re-analysis of the deposited data

How the results depend on the processing

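Under every alternative run, 0 of the Hox genes passed the threshold, and the smallest limma adjusted p of any Hox gene was 0.131, for Hoxd13 without wild type replicate 2. For Hoxd9 the adjusted p over the alternatives lay between 0.259 and 1.00. With the replicate block 0 Hox genes passed, and the numbers are not known to pair the lines. Over all probe sets the count was 1; it was 2 with median-centred arrays, 0 without scaling, 0 without the filter, 0 with a constant prior variance and 39 with the replicate block, and it ranged from 1 to 43 with single arrays left out, the highest being without wild type replicate 2. With the brightest 40% kept, Hoxa2, Hoxb7, Hoxd3, Hoxd9, Hoxd10 and Hoxd11 were not tested. The median over the Hox genes stayed between 0.043 and 0.13. Scaling moved the median of all kept probe sets by 0.18 with median-centred arrays and by 0.38 without scaling, and values under both are given relative to that shift. There Hoxa2, Hoxa3, Hoxa11 and Hoxb7 had -0.18, -0.018, 0.038 and -0.0096, the same under both. On probe sets with no _x_at, _s_at or _a_at suffix Hoxa5 had -0.64. With the mean of all kept probe sets, Hoxa5, Hoxa9, Hoxb3 and Hoxc5 had -0.28, -0.16, -0.50 and 0.20. Of the 25 genes, 18 turned sign with at least 1 alternative and 7 did not: Hoxa13, Hoxb9, Hoxc4, Hoxd3, Hoxd9, Hoxd10 and Hoxd11. Each of these 7 had only 1 tested probe set, so a change of probe set could not turn it. For Hoxa13, Hoxd3, Hoxd9 and Hoxd10 the genotypes did not overlap, so leaving out 1 array could not turn the sign either. Hoxd9 and Hoxd11 passed the filter only through the RBP2-/- lines. Keeping a sign was thus partly fixed in advance. With single arrays left out, the ranges of those that turned were -0.050 to 0.082 for Hoxa2, -0.43 to 0.45 for Hoxa3, -0.21 to 0.39 for Hoxa5, -0.097 to 0.37 for Hoxa9, -0.35 to 0.69 for Hoxa10, -0.30 to 0.27 for Hoxa11, -0.40 to 0.52 for Hoxb2, -0.12 to 0.43 for Hoxb3, -0.66 to 0.14 for Hoxb4, -0.56 to 0.61 for Hoxb6, -0.37 to 0.64 for Hoxb7, -0.056 to 0.045 for Hoxc5, -1.08 to 0.68 for Hoxc6, -0.53 to 0.20 for Hoxc8, -0.23 to 1.36 for Hoxc9, -0.56 to 0.043 for Hoxc10, -0.11 to 0.53 for Hoxd8 and -0.10 to 1.34 for Hoxd13. With single arrays left out, the medians of clusters A, B and C and of all 5 other lists lay on both sides of 0. The cause of these changes was not tested.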
